A study of Mus musculus with 2 samples.

Results

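Isolated pairs of EBF1 peaks are places where the authors' peak list holds 2 peaks close together and no other nearby. Peaks on chromosomes 1 to 19 and X were taken, and those in a 1 kb bin with at least 50 input reads were left out. The remaining peaks were joined along each chromosome wherever neighbouring centres lay at most 10 kb apart, and the members are the peaks in chains of exactly 2. Of 7424 listed peaks, 7415 lay on these chromosomes, 54 of them fell to the input limit, and 7361 were joined. Of these, 1392 peaks in 696 pairs (18.9%, exact 95% interval 18.0 to 19.8%) are members, beside 5308 solitary peaks and 661 peaks in 184 clusters of 3 or more. That interval counts each peak as separate although members come only in pairs, so it is too narrow. Members were thus chosen by the positions of the peaks and the input reads in their bins, and the peaks themselves were called on the ChIP reads, so spacing up to 10 kb and enrichment in the peaks are descriptions.

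The data are 1 chromatin immunoprecipitation library (ChIP-seq, EBF1 ChIP replicate 1) of 24354888 reads and 1 input library (Input replicate 1) of 23053279 reads, both from splenic B cells of adult C57BL/6 mice. Cells positive for CD43, AA4.1, CD9, CD4 or CD8 had been depleted, and the rest were about 97% B220 positive, and about 92% of these had CD23 and an intermediate level of CD21 on their surface, as mature follicular B cells do. Both groups share fixation in 1% formaldehyde for 10 min, and the ChIP used 4 µg of a custom rabbit antibody against murine EBF1. The labels do not say how many animals were pooled. Each group has 1 library, so differences have no check by replicates and no p-value is given. Intervals of read counts and read ratios cover counting error only. Those of shares and medians treat the reads, peaks or pairs counted as separate draws, and none covers variation between libraries. No position occurs more than once per strand, so PCR copies with the same start are not counted again. Without molecular identifiers, separate fragments with the same start also count once. Where 0 reads were counted, 3 counts are taken as the upper limit, which is 0.123 RPM for the ChIP and 0.130 RPM for the input.

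EBF1 (early B cell factor 1) is a transcription factor that binds DNA as a dimer and is needed to start and maintain the B cell lineage. In mature follicular B cells, which circulate and rest until they meet antigen, it stays expressed and occupies promoters and enhancers. Regulatory elements often carry several binding sites for a factor, either within 1 element or in neighbouring elements of the same locus, and pairs of peaks can arise from both arrangements. Positions below are in the mm8 build, counted from 1, and each peak is 150 bp long.

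Per kb of spacing, pairs were densest where the 2 peaks lay close together, although the widest class held the most pairs. Spacing, measured between peak centres, ran from 360 to 10000 bp with a median of 2495 bp and quartiles of 820 and 5842.5 bp. In 214 pairs (30.7%, 27.3 to 34.3%) it was under 1 kb, a class that covers 10% of the range the rule allows. Another 174 pairs (25%, 21.8 to 28.4%) lay 1 to 3 kb apart, a class that covers 20%, and 308 pairs (44.3%, 40.5 to 48.0%) lay 3 to 10 kb apart, which covers 70%. Per kb of spacing these are 214, 87 and 44 pairs.

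The excess stood at short distance. Between 400 and 500 bp there were 45 pairs, between 500 and 600 bp 41, between 800 and 900 bp 33, and between 900 and 1000 bp 17. The next full kb, 1000 to 2000 bp, held 103 pairs, and the classes of 1 kb from 3 kb upward held 30 to 54 with no steady fall. The list holds no pair closer than 360 bp, and spacings are all multiples of 10 bp. Whether peaks closer than that were merged when they were called is not given in the sources used here.

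**Figure D1:**
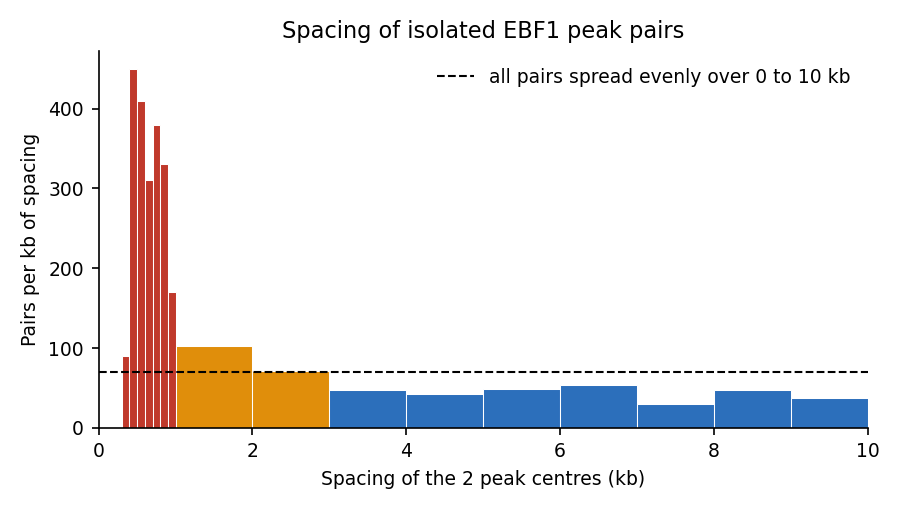
Spacing of the 2 peak centres (x axis, kb) of the 696 pairs, as pairs per kb of spacing (y axis), in classes of 100 bp below 1 kb and of 1 kb above, coloured red under 1 kb, orange at 1 to 3 kb and blue beyond; the dashed line is an even spread of all pairs over 0 to 10 kb. Classes below 3 kb stand above the line, the highest being 400 to 500 bp, and those beyond 3 kb lie below it.

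For description only, since spacing also sorts peaks into pairs and clusters, neighbouring peaks within clusters of 3 or more are set beside the pairs. Of 477 such neighbours, 92 (19.3%, 15.8 to 23.1%) were spaced under 1 kb. Their median spacing was 3530 bp and the lowest 380 bp. The share at 1 to 3 kb was 25.6% (21.7 to 29.7%).

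Within the peaks, members were enriched for EBF1 to about the same degree as other peaks, and in 1 kb windows slightly more than solitary ones. They held a median of 13 ChIP reads (quartiles 10 and 22, range 3 to 208) and 1 input read, and 344 held 0 input reads. Pooled over the 1392 peaks and scaled by library size, the ChIP to input ratio was 11.9 (11.4 to 12.4), against 11.2 (10.95 to 11.5) for solitary peaks and 12.7 (11.99 to 13.5) for clusters, with overlapping intervals between pairs and each of the others. In 1 kb around the centre the ratio was 4.17 (4.10 to 4.24) for members, 3.79 (3.75 to 3.82) for solitary peaks and 4.46 (4.35 to 4.57) for clusters, with no overlap. Members spaced 3 to 10 kb, whose window leaves out the partner, had 3.95 (3.85 to 4.05). In the same window, 1302 of 1392 members (93.5%, 92.1 to 94.8%) had a ratio of at least 2. Among all 7415 listed peaks 91.1% did, and among solitary peaks 90.8% (90.0 to 91.6%). For pairs spaced under 1 kb this window takes in reads of the partner, and 97.7% of their members passed, against 91.7% of those at 1 to 3 kb and 91.7% at 3 to 10 kb. Both members passed in 609 pairs, 1 member in 84 and neither in 3. With 93.5% of members passing, both would pass in most pairs even if partners were unrelated.

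By the authors' score, the peak caller's own value per peak, members were strong somewhat more often than solitary peaks. The median score was 6.34 against 5.92, and 307 members (22.1%, 19.9 to 24.3%) had a score of at least 10, against 17.2% (16.2 to 18.2%) of solitary peaks and 27.4% (24.0 to 31.0%) of peaks in clusters. The highest score among members was 87.5, on chromosome 5. Spacing made little difference: the share was 20.1% (16.4 to 24.2%) under 1 kb, 22.4% (18.1 to 27.2%) at 1 to 3 kb and 23.2% (19.9 to 26.8%) at 3 to 10 kb.

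Reads of members faced the peak centre as those of other peaks did. Of ChIP reads starting within 150 bp of a member's centre, 81.5% (81.1 to 81.9%) lay on the side from which their strand points to the centre, the pattern of a bound site. The centres were called on these same ChIP reads, so this share is a description and can follow in part from the calling. The share was 81.6% around solitary peaks. In pairs spaced under 1 kb it was 80.7% (79.9 to 81.4%), and at 3 to 10 kb 82.1% (81.6 to 82.7%). The input gave 51.1% (49.6 to 52.5%) around members.

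ChIP counts of the 2 peaks of a pair were not measurably more alike than those of peaks from different pairs. The stronger peak of a pair held a median of 19 ChIP reads and the weaker one 10. The median absolute log2 ratio of their counts, each with 1 added, was 0.72 (95% interval of the median over pairs 0.65 to 0.77), a 1.65-fold difference. Over all 967440 combinations of members from different pairs, whose median is what shuffled pairs give on average, it was 0.76, or 1.69-fold. In 366 of 696 pairs (52.6%, 48.8 to 56.3%) the difference was smaller than that median. Spearman's rho between the 2 counts was 0.02 over the 696 pairs, a description of 1 library in which peaks below the caller's limit are missing.

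Over all pairs, unequal counts were about as frequent as in combinations of members from different pairs. Counts were at least 2-fold apart in 258 pairs and at least 4-fold apart in 99. The absolute log2 ratio was at or below 1 in 64.7% of pairs and 61.9% of combinations. It was at or below 2 in 85.9% and 86.2%. In 251 pairs (36.1%, 32.5 to 39.8%) the exact interval of the stronger peak's share of the reads lay above equality, against 37.6% of the combinations. This share was 30.8% (24.7 to 37.5%) under 1 kb, 40.2% (32.9 to 47.9%) at 1 to 3 kb and 37.3% (31.9 to 43.0%) at 3 to 10 kb. The upper limit under 1 kb lies just below the overall 37.6%, but combinations within that class gave 33.4%, and those within the wider classes 39.1% and 39.6%. In the remaining pairs a difference was not detectable at this depth.

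**Figure D2:**
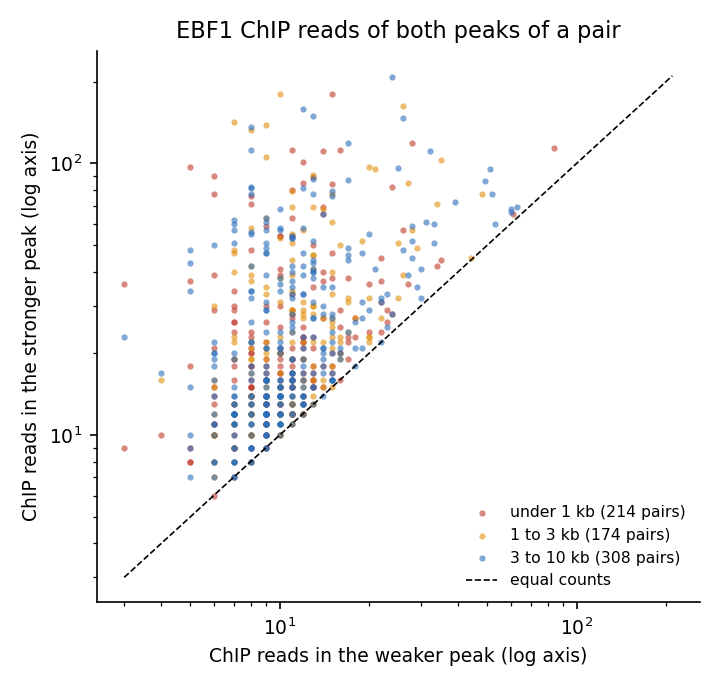
ChIP reads in the weaker (x axis) and the stronger peak (y axis) of each of the 696 pairs on log axes, 1 point per pair, coloured by spacing, with the line of equal counts. Weaker peaks have a median of 10 reads and by definition hold no more than the stronger peak, and 8 pairs have 50 or more reads in both.

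Partners of strong peaks had the same median count as partners of weak ones. Members with 50 or more ChIP reads, 116 in number with a median of 69, had partners with a median of 13 reads (12 to 15). Members with fewer than 10 reads, 325 in number, also had partners with a median of 13 (12 to 14). Both peaks had 50 or more reads in 8 of 696 pairs, where the product of the shares gives 4.83, and at least 1 peak did in 108. By score, both members reached 10 in 36 pairs (5.17%, 3.65 to 7.09%), where the product of the shares gives 33.9 pairs, and 1 of 2 did in 235, where the product gives 239.3.

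The same was seen at each spacing. The median absolute log2 ratio was 0.74 (0.58 to 0.81) in pairs spaced under 1 kb, 0.74 (0.65 to 1.00) at 1 to 3 kb and 0.70 (0.58 to 0.78) at 3 to 10 kb. The combinations within each class gave 0.71, 0.78 and 0.78. In windows of 400 bp the median difference was 0.58 both within pairs and between members of different pairs. The 9 pairs spaced under 400 bp, where fragments can overlap both windows, had 0.26 (0.12 to 0.74), against 0.36 for combinations among these pairs, with 5 of 9 below it.

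The surroundings of the 2 peaks were alike where the peaks were not. In the outer flanks, 300 to 5000 bp from each centre on the side away from the partner, ChIP counts differed by a median of 0.28 (0.26 to 0.31) on the log2 scale, against 0.41 for flanks of different pairs. The difference was smaller than that median in 462 pairs (66.4%, 62.7 to 69.9%), and rho was 0.40. Flanks of neighbouring pairs on a chromosome differed by 0.34. Input reads in the same flanks differed by 0.26 (0.24 to 0.29) within pairs and 0.29 between pairs, with a rho of 0.12. Flanks hold more reads than peaks, so the sizes of these differences are not comparable between flanks and peaks, only each with its own combinations.

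**Figure D3:**
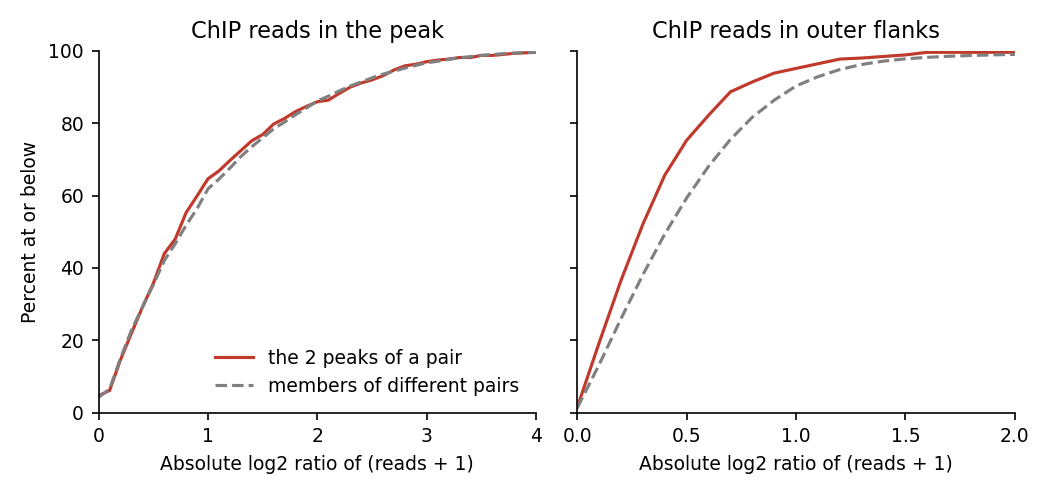
Share of pairs (solid red) and of all combinations of members from different pairs (dashed grey), in percent (y axis), whose absolute log2 ratio of reads is at or below the value on the x axis, for ChIP reads in the 2 peaks (left) and in their outer flanks (right). The curves run together for the peaks, with medians of 0.72 and 0.76, and separate for the flanks, with medians of 0.28 and 0.41.

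Between the 2 peaks, ChIP reads stood above input, and more so the closer the peaks were. The interval from 300 bp inside one centre to 300 bp inside the other was taken, which exists in 598 pairs and covers 2029 kb. It held 36515 ChIP and 24860 input reads, a scaled ratio of 1.39 (1.37 to 1.41). The ratio was 2.26 (1.95 to 2.61) in the 116 pairs spaced over 600 bp but under 1 kb, 1.64 (1.56 to 1.72) at 1 to 3 kb and 1.35 (1.32 to 1.37) at 3 to 10 kb. In ChIP reads per kb these are 31.2, 21.1 and 17.4, against 13.1, 12.2 and 12.2 input reads. The absence of any further called peak there follows from the rule.

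Outer flanks of the same length and distance from the nearer centre were compared with the interval between the peaks, which lies beside both peaks where an outer flank lies beside 1. The flanks' ratio was 1.72 (1.48 to 2.00), 1.44 (1.37 to 1.51) and 1.33 (1.31 to 1.36) in the 3 spacing classes. Relative to these flanks and to input, the interval between the peaks held 1.31 times as many ChIP reads (1.07 to 1.61) under 1 kb, 1.14 times (1.06 to 1.22) at 1 to 3 kb and 1.01 times (0.985 to 1.04) at 3 to 10 kb. Over all pairs the value was 1.03 (1.01 to 1.05), and its interval reached below 1 when chains were joined up to 20 kb (0.991 to 1.02), for the top 50% of the list by score (0.995 to 1.07) or when the interval started 500 bp from each centre (0.998 to 1.05). At 1 to 3 kb, 100 of 174 pairs had more ChIP reads between the peaks than outside and 70 had fewer, while input was higher between them in 94 and lower in 75. At 3 to 10 kb the ChIP split was 166 to 141 and the input split 159 to 142.

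**Figure D4:**
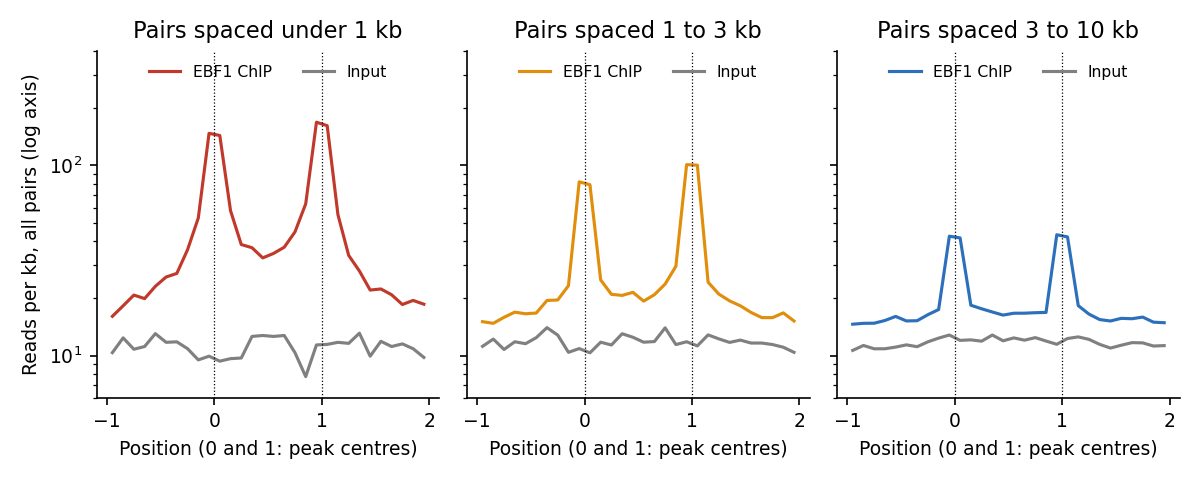
Reads per kb (y axis, log) of the EBF1 ChIP (coloured) and the input (grey) along pairs in 3 spacing classes, with each pair scaled so that its centres lie at 0 and 1 on the x axis. ChIP reads dip between the peaks in every class, to 32.6 per kb midway under 1 kb and to 16.3 at 3 to 10 kb, and stay above the input; peak heights cannot be compared between panels, because a scaled bin is wider at larger spacing.

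Close pairs were still 2 separate maxima. Of 214 pairs spaced under 1 kb, 187 had fewer ChIP reads in the 150 bp window midway between the centres than in the weaker peak, 12 had as many and 15 had more. The window held a median of 5 reads (highest 17) and the weaker peak 10. That both positions are maxima follows in part from their being called as separate peaks.

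The reads midway lay within counting error of the sum of the 2 outer sides. Pairs spaced up to 500 bp held 5.44 ChIP reads (exact Poisson interval 4.84 to 6.10) per pair in the midway window, and 3.94 (3.57 to 4.33) in windows at the same distance on the outer side. At 700 to 1000 bp they held 4.95 (4.50 to 5.44) and 3.50 (3.23 to 3.79). The sum of both outer sides, less the level 6 to 9 kb outside the pair, was 6.03 (5.28 to 6.78) and 5.01 (4.46 to 5.57) in the same classes. At 500 to 700 bp the midway window held 5.29 (4.77 to 5.85) and the sum was 5.26 (4.64 to 5.88). In the classes of 1000 to 2000, 2000 to 3000 and 3000 to 10000 bp the midway counts were 3.33, 2.63 and 2.62 and the sums 3.54, 2.62 and 2.67, each pair of values with overlapping intervals. Input in the midway window ran from 1.69 to 2.15 reads with no order by spacing.

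**Figure D5:**
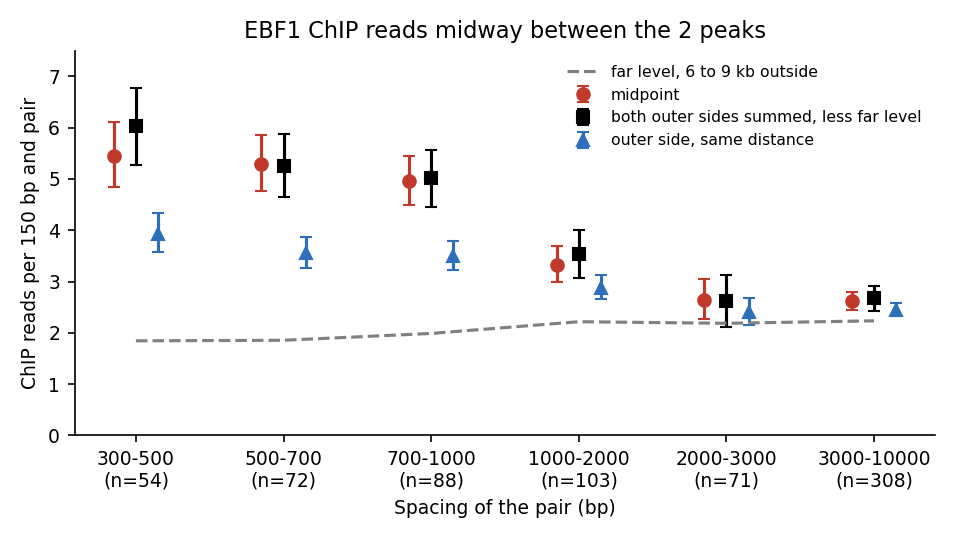
ChIP reads per 150 bp and pair (y axis) in 6 spacing classes (x axis, with the number of pairs): midway between the centres (red circles, exact Poisson 95% interval), on the outer side at the same distance (blue triangles, same interval), and both outer sides summed less the far level (black squares, 95% interval from the counts), with the far level as a dashed line. Midway counts exceed the outer side below 1 kb and overlap the sum in all 6 classes.

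Each peak of a wider pair was also even on its own 2 sides. In the 379 pairs spaced at least 2 kb, the stronger peak had 281.3 ChIP reads per kb within 40 bp of its centre on the inner side (272.9 to 289.8) and 278.4 on the outer side (270.1 to 287.0). The weaker peak had 116.4 (111.0 to 121.9) and 117.5 (112.2 to 123.1). Evenness so near the centre can follow from the calling of the centres on these same reads. At 700 to 1000 bp from the centre the stronger peak had 18.8 on the inner and 18.9 on the outer side, and the weaker one 18.4 and 18.1, each with overlapping intervals.

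Close and wide pairs lay in different surroundings. Within 500 kb of a member, its partner left out, there was a median of 5 other peaks for pairs spaced under 1 kb, 8 at 1 to 3 kb and 8 at 3 to 10 kb, against 6 for solitary peaks and 12 for clusters. In bins 10 to 50 kb away and at least 2 kb from any listed peak, the ChIP to input ratio was 1.16 (1.15 to 1.17) for pairs under 1 kb, 1.23 (1.22 to 1.24) at 1 to 3 kb and 1.26 (1.25 to 1.26) at 3 to 10 kb. Solitary peaks had 1.168 (1.166 to 1.169) and clusters 1.32 (1.31 to 1.33). Pairs under 1 kb thus lay in surroundings like those of solitary peaks, and wider pairs in surroundings richer in EBF1 reads. The counts of other peaks use the same positions that sorted peaks into these classes, so they are descriptions. The ratio between the peaks at 3 to 10 kb, given above, includes this regional level, and the part of the region in it was not tested.

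Pairs were spread over all chromosomes. Chromosome 11 held the most, 74 pairs, which took 23.2% (20.0 to 26.7%) of its peaks. Chromosome 19 had the highest share, 24.6% (19.7 to 30.2%), and chromosome X the lowest, with 5 pairs and 11.6% (5.72 to 20.3%). The overall share of 18.9% lay below the intervals of chromosomes 11 and 19, above that of chromosome 6, at 14.3% (10.8 to 18.5%), and inside those of the others, X included. These intervals count each peak as separate although members come only in pairs, so they are too narrow. They cannot show whether chromosomes 6, 11 and 19 differ from the overall share. The next peak outside a pair was a median of 44555 bp away, and for 145 pairs (20.8%) it lay within 20 kb, so these are isolated only by the limit of 10 kb. In 175 pairs no other peak lay within 100 kb.

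Pairs with strong binding at both peaks were few, and the one with the strongest weaker member stood apart from the next. It lies on chromosome 9, at 103347291 to 103347440 and 103348151 to 103348300, 860 bp apart. Its peaks held 114 ChIP and 5 input reads and 84 ChIP and 6 input reads, ratios of 21.6 (8.98 to 67.7) and 13.2 (5.84 to 37.1). Between them 260 bp held 5 ChIP reads, and the outer flanks of the same length held 19. Next came a pair on chromosome 12, at 113670661 to 113670810 and 113676131 to 113676280, spaced 5470 bp, with 63 and 69 ChIP reads over 3 and 1 input reads. A pair on chromosome 13 at 30667211 to 30667360 and 30667651 to 30667800 was much closer, 440 bp, and held 65 and 61 ChIP reads over 3 and 0 input reads, ratios of 20.5 (6.71 to 102) and at least 19.2 against a floor of 3 input counts.

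The other 5 such pairs were all spaced between 4660 and 6380 bp, and their peaks held 51 to 95 ChIP reads. Chromosome 11 had 2 of them. The pair at 74984381 to 74984530 and 74989381 to 74989530 held 60 and 68 ChIP reads, and the pair at 106124391 to 106124540 and 106130641 to 106130790 held 60 and 66. The pair on chromosome 6 at 31146691 to 31146840 and 31151351 to 31151500 held 60 and 53. Chromosome 8 had a pair at 73558941 to 73559090 and 73564711 to 73564860, with 52 and 77 ChIP reads, and one at 129718811 to 129718960 and 129725191 to 129725340, with 51 and 95. None of these 5 differed between its peaks by more than 0.885 on the log2 scale, which the choice by the weaker member favours. In both pairs on chromosome 8 the exact interval of the stronger peak's share of the reads lay above equality. In the pairs on chromosomes 6 and 11 it did not.

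The 5 pairs with the highest summed ChIP reads in each spacing class included even and uneven ones. The highest sum of all was on chromosome 5, where a peak at 122094541 to 122094690 held 208 ChIP and 2 input reads and its partner at 122099621 to 122099770, 5080 bp away, held 24 and 2. The 4480 bp between them held 156 ChIP and 45 input reads, and their outer flanks 98 and 55. Under 1 kb, the highest sum belonged to the pair on chromosome 9 described above, with 114 and 84 ChIP reads, and the even pair on chromosome 13, with 65 and 61, was also among the 5. A pair on chromosome 11 at 109241491 to 109241640 and 109242161 to 109242310 held 15 and 180 ChIP reads 670 bp apart. A pair on chromosome 10 at 60092451 to 60092600 and 60093271 to 60093420 held 119 and 28. The pair on chromosome 19 at 47940891 to 47941040 and 47941471 to 47941620 held 16 and 112. At 1 to 3 kb, a pair on chromosome 7 at 98361651 to 98361800 and 98363551 to 98363700 held 26 and 162, and the other 4 are among the most unequal pairs below. At 3 to 10 kb, those on chromosome 9 at 120431111 to 120431260 and 120435381 to 120435530 held 26 and 147, on chromosome 10 at 80565251 to 80565400 and 80570911 to 80571060 held 158 and 12, and on chromosome 7 at 25336241 to 25336390 and 25345291 to 25345440 held 13 and 150, while the pair on chromosome 8 with 51 and 95 reads was less uneven. ChIP reads can start at 300 positions over both strands of a peak, which caps the highest counts.

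The 6 most unequal pairs were 3.80 to 4.16 apart on the log2 scale. The first was on chromosome 15, where peaks at 79567421 to 79567570 and 79569301 to 79569450, spaced 1880 bp, held 7 and 142 ChIP reads. On chromosome 8, peaks at 109225551 to 109225700 and 109227331 to 109227480 held 10 and 180. On chromosome 17, peaks only 530 bp apart at 44896831 to 44896980 and 44897361 to 44897510 held 5 and 97, and the ratio of the weaker one was 4.73 (0.530 to 224). On chromosome 10, peaks at 74881771 to 74881920 and 74890241 to 74890390 held 8 and 136. On chromosome 16 the stronger peak came first, with 133 reads at 32083231 to 32083380 and 8 at 32085181 to 32085330, where the ratio was 3.79 (0.755 to 36.6). The weaker peaks of these pairs on chromosomes 17 and 16 were not resolved from input. On chromosome 3, peaks at 146193921 to 146194070 and 146194951 to 146195100 held 9 and 138. Extremes of 696 pairs are chosen for their difference, which raises it.

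The 5 pairs with the most ChIP reads per kb between their peaks were of mixed kinds. A pair on chromosome X, at 165334251 to 165334400 and 165342351 to 165342500, held 152.7 ChIP but also 144.1 input reads per kb between its peaks. The peaks themselves held 23 and 3 ChIP reads over 9 and 3 input reads, ratios of 2.42 (1.08 to 5.94) and 0.946 (0.127 to 7.07). The second peak was thus not resolved from input. Of 2 pairs on chromosome 1, the one at 90082531 to 90082680 and 90087281 to 90087430 had 85.1 ChIP and 42.9 input reads per kb between, and the one at 90069941 to 90070090 and 90071501 to 90071650 had 54.2 and 41.7. These 3 pairs are also the ones with a peak dropped for high input within 10 kb. Without them the ratio between the peaks was 1.40 (1.38 to 1.43) and the value relative to the outer flanks 1.03 (1.01 to 1.06). The other two had little input. A pair on chromosome 10, at 126568091 to 126568240 and 126569031 to 126569180, held 20 ChIP and 2 input reads in 340 bp, with 15 and 14 ChIP reads in its peaks. A pair on chromosome 6, at 88807591 to 88807740 and 88808591 to 88808740, held 22 ChIP and 4 input reads in 400 bp, against 10 and 7 in its outer flanks.

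At the edge of the rule, values on both sides are given as a description. Just inside, a pair on chromosome 11 at 22872081 to 22872230 and 22882081 to 22882230, spaced 10000 bp, held 12 and 15 ChIP reads, and one on chromosome 2 at 165773881 to 165774030 and 165783851 to 165784000, spaced 9970 bp, held 9 and 10. Just outside, solitary neighbours on chromosome 5 were spaced 10040 bp with 10 and 7 ChIP reads, and another 2 on that chromosome 10060 bp with 16 and 30. On the input side, the fullest bins of members held 47 and 45 reads, and the least full bins of dropped peaks 54 and 54.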

How the data were processed

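EBF1 ChIP and input reads were analysed with the authors' peak list, and the members and lists were chosen with earlier results of these data known. The read files the authors deposited hold 1 aligned 35 bp read per line, and no position occurs more than once per strand. The build mm8 and the tool HOMER are named, per the submitters' processing notes, and the name of the peak list carries CCAT. Beyond that name, the sources used here do not say which tool called the peaks. They name no aligner, filter or peak-calling setting. Whether the input was the caller's control is not stated either, so what the score is relative to is unknown. The score in the deposited peak list comes from the peak caller, has no stated scale, and is used only within this list.

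Each 5′ end was moved 100 bp towards the 3′ end (50 bp for profiles) and counted in the 150 bp peak. ChIP to input ratios were scaled by 1.06, the depth of ChIP over input on the assembled chromosomes (24337709 and 23033569 reads), and carry exact conditional binomial 95% intervals. Shares carry Clopper-Pearson intervals, medians over pairs order-statistic intervals, and values relative to outer flanks intervals from the log-normal approximation to 4 counts. A pseudocount of 1 was used for log2 ratios. In place of random shuffles, all combinations of members from different pairs were enumerated. Steps were tested on simulated data.

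Named pairs follow a fixed rule: the 8 with the strongest weaker member, the 5 with the highest summed reads in each spacing class, the 6 most unequal, the 5 with most ChIP reads per kb between (at least 300 bp), and 2 on either side of the 10 kb limit. Chaining distance, input limit, read shift, window, pseudocount, scaling, trimming and score were varied. Genes and sequences were not analysed here, since the tables at hand describe another build. Software was Python 3.11.15, scipy 1.17.1, numpy 2.4.6, matplotlib 3.10.9 and pandas 2.3.3.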

Additional observations from a re-analysis of the deposited data

Results flagged for a closer look

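The 9 listed peaks on unplaced contigs entered no pair, and they stood above input. They held 205 ChIP and 40 input reads, a scaled ratio of 4.85 (3.44 to 6.99), with scores up to 20.2.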

How the results depend on the processing

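Of 62 values recomputed under other settings, 43 stayed within their 95% interval (counts within 1.5 times) and 19 moved. A change of direction was looked for only in the value relative to the outer flanks, and none was found. The settings that left out the 3 pairs near dropped peaks were chosen after the data were seen. With only the top 50% of the list by score, there were 288 pairs, 26.7% of them under 1 kb, a within-pair difference of 0.80 (0.88 for combinations), a ratio between the peaks of 1.41, a ratio in members of 15.2 and 564 members at least 2-fold over input; this setting shortens the list by construction. Joining up to 5 kb gave 42.2% under 1 kb, a ratio between of 1.55, 1.06 relative to outer flanks and a member ratio of 12.6, and joining up to 20 kb gave 22.8% and a ratio between of 1.30. Unmoved reads gave a within-pair difference of 0.81 and a member ratio of 10.5, reads moved 50 bp gave 0.78 and 13.0, windows of 400 bp gave 0.58, intervals from 500 bp gave a ratio between of 1.34, and keeping high-input peaks gave a member ratio of 11.3. For these shifts the cause was not tested. The within-pair difference was below or equal to that of the combinations in every setting run. Depth limits single pairs, since the weaker peak held a median of 10 reads. No paired analysis was possible because there is only 1 library of each kind.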

Other observations

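The stronger peak of a pair lay at the higher coordinate more often than at the lower one. This held for 377 pairs against 286, with 33 equal, or 56.9% (53.0 to 60.7%) of unequal pairs, and it was noticed after the values were seen. By the authors' score the share was 55.1% (51.3 to 58.9%), and in windows of 400 bp 52.6% (48.8 to 56.4%). It was 64.0% (56.2 to 71.4%) at 1 to 3 kb, 55.4% (48.3 to 62.3%) under 1 kb and 53.9% (48.0 to 59.7%) at 3 to 10 kb. ChIP reads in the outer flanks gave 49.9% (46.1 to 53.7%) and input reads in 1 kb 53.3% (49.4 to 57.3%). Neighbours in clusters gave 48.3% (43.6 to 52.9%), and solitary neighbours within 50 kb 52.3% (49.4 to 55.3%). The higher coordinate led on 13 chromosomes, the lower on 5, and 2 were even.

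Neighbouring peaks per kb of spacing kept falling in number beyond the limit of the rule. Over all 7361 peaks there were 306 neighbours under 1 kb, 296 at 1 to 3 kb, 570 at 3 to 10 kb and 567 at 10 to 20 kb, which is 306, 148, 81.4 and 56.7 per kb of spacing.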
